A study of Rattus norvegicus with 86 samples.

Results

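Drd2, Adora2a and Penk mark the neurons of the indirect pathway, and their transcripts were followed here in the nucleus accumbens core of outbred Heterogeneous Stock (HS) rats. The genes were taken by their Ensembl identifiers, ENSRNOG00000008428 for Drd2, ENSRNOG00000001302 for Adora2a and ENSRNOG00000008943 for Penk. All 3 were present among the 17180 gene identifiers measured. RNA-Seq was performed on polyA RNA from tissue pooled over both sides of the brain, with 1 library for each rat. No group received a treatment, and the labels name no engineered allele. Of 86 samples, 11 were labelled as removed and 75 libraries were analysed. The labels divide the rats by sex and by a rat batch number whose meaning they do not give. Rat batch 2 held 2 females and 10 males, rat batch 3 held 13 and 7, rat batch 4 held 14 and 12, and rat batch 6 held 8 and 8. Rat batch 5 was a single female and was left out of the comparisons, which then covered 74 libraries. Each library came from a separate rat, so the spread reported below is between rats. Differences in dissection and library preparation are part of it and cannot be told apart from those of the animals. Of the removed samples, 5 were labelled expression outliers.

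Medium spiny neurons, the principal cells of the striatum, fall into a direct and an indirect pathway class. Drd2 encodes the dopamine receptor that couples to inhibitory G proteins and lowers cyclic AMP in indirect-pathway neurons. Adora2a encodes the adenosine receptor that raises cyclic AMP in the same neurons and opposes the action of the Drd2 product. Penk encodes proenkephalin, the precursor from which the enkephalin opioid peptides are cut. The genes are not exclusive to this class, since cholinergic interneurons also use Drd2 and Penk is made by other neurons too. In whole tissue, fewer cells of a type and less RNA per cell cannot be told apart.

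Of the 3 genes, the RefSeq promoter table (build GRCr8) held a promoter for Drd2 only and none for Penk or Adora2a. The Drd2 sequence is therefore the only one shown. It covers the 250 bases before the start site, at chr8:58605153-58605402 on the plus strand, and reads toward the gene. Capitals mark the GC box, the letters GGGCGG on either strand, which is a binding motif of Sp-family factors.
Drd2: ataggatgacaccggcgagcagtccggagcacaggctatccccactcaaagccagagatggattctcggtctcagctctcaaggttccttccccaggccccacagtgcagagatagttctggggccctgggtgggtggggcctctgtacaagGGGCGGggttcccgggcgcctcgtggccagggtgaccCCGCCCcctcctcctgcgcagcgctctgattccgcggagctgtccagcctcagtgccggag
The motif occurred 2 times, beginning 98 and 61 bases before the start. At least 1 copy was present in 30.5% of the 33469 RefSeq promoters of that length, and 2 or more copies in 14.8%. The cyclic AMP response element TGACGTCA, searched on both strands, was not in this window and was in 1.6% of the promoters. The Drd2 window was 66.0% G and C, against a median of 51.2%, and 86.2% of promoters were lower.

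The lowest library total was 8455361 recovered counts and the highest 26145458, around a mean of 17740769 ± 3102997 (SD, n = 75). In 5 libraries the median correlation with the other libraries was lowest, and these were the male rat 10 of batch 2, the female rat 11 of batch 4, and the female rats 4 and 10 and the male rat 14 of batch 6. The results below are given without these 5 where that changed a call. The gene tables used here did not pair the other identifiers with names, so markers of other cell types and the other genes of these pathways were not examined, and the part of cell composition in the results was not tested.

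All 3 genes were well covered in every library. Drd2 had between 2381 and 7478 counts, with a median of 4782. Adora2a had between 3165 and 10355 counts, with a median of 6645. Penk had between 8952 and 42753 counts, with a median of 23736. Counts were not compared between the genes, since transcript lengths were not used. On the deposited scale, log2(scaled count + 1), the mean over the 74 rats was 12.25 ± 0.20 for Drd2, 12.71 ± 0.26 for Adora2a and 14.63 ± 0.26 for Penk (SD, n = 74). The highest rat exceeded the lowest by 1.86-fold for Drd2, 2.34-fold for Adora2a and 2.09-fold for Penk. Counting error alone amounts to an SD of 0.021 for Drd2, 0.018 for Adora2a and 0.009 for Penk on the log2 scale, which is small beside that range.

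The first comparison asked whether the genes differed between rat batches. The receptor genes fell into a high and a low pair of batches. Drd2 ranged from 12.23 to 12.60 in batch 2, with a median of 12.39, and from 12.13 to 12.69 in batch 3, with a median of 12.40. In batch 4 it ranged from 11.81 to 12.45, with a median of 12.10, and in batch 6 from 11.80 to 12.40, with a median of 12.12. Every rat of batches 2 and 3 was above the median of batch 4 and above the median of batch 6. The groups overlapped, with 7 of 20 rats of batch 3 above the highest rat of batch 4 and 15 of 26 rats of batch 4 below the lowest rat of batch 3.

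Adora2a, the adenosine receptor gene, was highest in batch 3. Its values there ran from 12.60 to 13.25 with a median of 12.98, and those of batch 2 ran from 12.56 to 12.99 with a median of 12.83. Batch 4 ran from 12.23 to 12.91 with a median of 12.57, and batch 6 from 12.02 to 12.80 with a median of 12.59. Here 14 of 20 rats of batch 3 exceeded the highest rat of batch 4, and 16 of 20 exceeded the highest rat of batch 6.

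Penk, the enkephalin precursor gene, had like medians in batches 2 and 4. Its values in batch 3 ran from 14.51 to 15.16 with a median of 14.80, which was the highest of the 4 medians. Batch 2 ran from 14.26 to 14.91 with a median of 14.58, batch 4 from 14.19 to 14.95 with a median of 14.58, and batch 6 from 14.10 to 14.94 with a median of 14.45. The batches overlapped, with 6 of 20 rats of batch 3 above the highest rat of batch 4 and 10 of 26 rats of batch 4 below the lowest rat of batch 3. In batch 2, 6 of 12 rats were above the median of batch 4 for Penk, 12 of 12 for Drd2 and 11 of 12 for Adora2a. The single rat of batch 5, which entered no test, had 11.93 for Drd2, 12.47 for Adora2a and 14.64 for Penk.

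**Figure D1:**
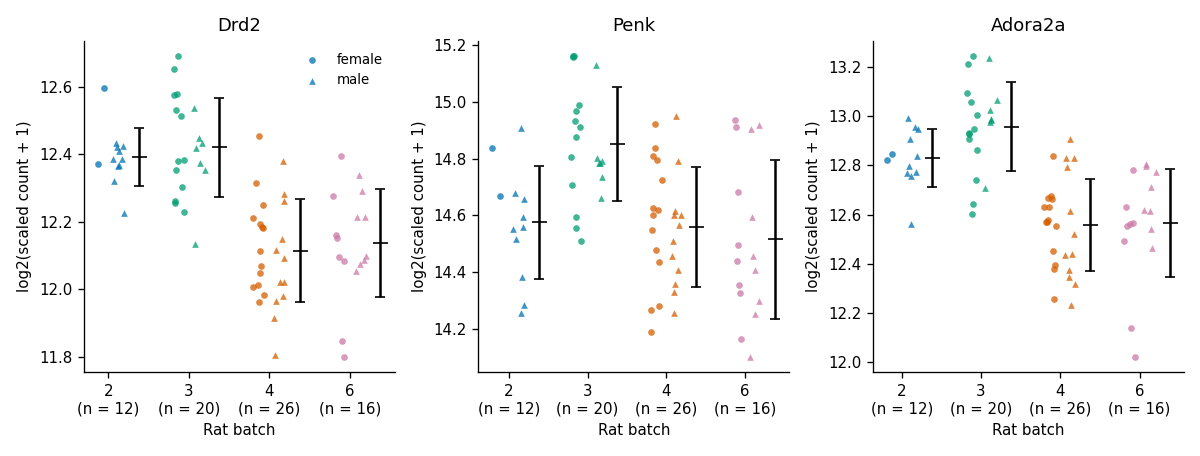
Deposited values of Drd2, Penk and Adora2a, log2(scaled count + 1), for each of 74 rats by rat batch, with females as circles and males as triangles. Black bars give the mean and SD of each batch, and the medians of Drd2 are 12.39 and 12.40 in batches 2 and 3 against 12.10 and 12.12 in batches 4 and 6.

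With sex as a covariate, the limma F test between rat batches gave an adjusted p-value of 1.11e-09 for Drd2, 1.69e-09 for Adora2a and 2.67e-04 for Penk. All 3 genes were called. Calls were common in this tissue, with 53.5% of all genes past the same threshold of 0.05. With 20 expression components as covariates, none of the 3 was called (limma adjusted p = 0.726 for Drd2, 0.429 for Adora2a and 0.531 for Penk), nor was any of the pair differences given below for these genes, and the F test called 12 of all genes. The names of the libraries in the table fall into 3 ascending runs that follow the batches, and with the run as a covariate none of the 3 was called either (limma adjusted p = 0.904 for Drd2, 0.655 for Adora2a and 0.763 for Penk). In that fit 0.984% of all genes were called, so that the lost calls are not particular to these genes. The call for Penk was also lost without batch 3 (limma adjusted p = 0.731) and under quantile normalization (limma adjusted p = 0.0735). By p-value, Drd2 ranked 491 and Adora2a ranked 531 of 17180 genes, and Penk ranked 3913. Of the variance left after the means of sex, differences between rat batches made up 51.4% for Drd2, 50.2% for Adora2a and 26.3% for Penk. The median was 17.1% over the 12988 genes whose mean log2 value reached 5. The share for Drd2 was above that of 96.2% of these genes, that for Adora2a above 95.6% and that for Penk above 69.8%.

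The pairs of batches, read from the same limma fit, placed these shifts. From batch 3 to batch 4, Adora2a fell by 0.41 on the log2 scale (SE 0.05, limma adjusted p = 5.75e-09), a 1.33-fold difference. Drd2 fell by 0.30 (SE 0.04, limma adjusted p = 3.02e-08), or 1.23-fold, and Penk fell by 0.28 (SE 0.07, limma adjusted p = 2.92e-04), or 1.22-fold. In this fit all 3 genes were called lower in batch 4 than in batch 3, as were 20.3% of all genes. With the run of library names as a covariate the same differences were -0.10 (SE 0.15) for Drd2, -0.11 (SE 0.18) for Adora2a and 0.04 (SE 0.22) for Penk. These values rest on the 1 library of batch 3 that shares its run with batch 4. The fit therefore cannot tell the batch from the run. From batch 3 to batch 6 the decreases were 0.40 for Adora2a, 0.28 for Drd2 and 0.33 for Penk, with limma adjusted p-values of 1.47e-07, 2.16e-06 and 2.01e-04. With the run as a covariate, batch 6 minus batch 3 was -0.10 (SE 0.19) for Adora2a, -0.08 (SE 0.15) for Drd2 and -0.003 (SE 0.22) for Penk. These values rest on the same library of batch 3. Under quantile normalization neither decrease of Penk was called, at -0.12 from batch 3 to batch 4 (limma adjusted p = 0.105) and -0.11 from batch 3 to batch 6 (limma adjusted p = 0.167). Among all genes, 22.3% were called lower in batch 6 than in batch 3.

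Against batch 2, only the receptor genes were called. Drd2 fell by 0.29 in batch 4 and by 0.27 in batch 6 relative to batch 2, with limma adjusted p-values of 1.44e-05 and 1.25e-04. Adora2a fell by 0.25 and by 0.24, with limma adjusted p-values of 0.00243 and 0.00484. Of all genes, 13.2% were called lower in batch 4 than in batch 2, and 17.9% lower in batch 6. Penk differed by -0.04 in batch 4 (95% interval -0.19 to 0.12) and by -0.08 in batch 6 (95% interval -0.25 to 0.09), and neither difference was called. With 20 expression components as covariates, batch 4 minus batch 2 was -0.08 for Penk, -0.13 for Drd2 and -0.21 for Adora2a. Batch 6 minus batch 2 was then -0.21, -0.17 and -0.21, and none of these was called. With the run as a covariate the differences from batch 2 in batches 4 and 6 were -0.03 and -0.01 for Drd2 (SE 0.16 for each). They were 0.07 and 0.07 for Adora2a (SE 0.20 for each). These values too rest on the 1 library of batch 3 in the run of batches 4 and 6. Whether the shift of Penk differed from that of the receptors was not tested.

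Within the high and within the low pair of batches none of the genes was called. Batch 3 minus batch 2 was 0.01 for Drd2 (95% interval -0.10 to 0.12), 0.16 for Adora2a (95% interval 0.02 to 0.29) and 0.24 for Penk (95% interval 0.08 to 0.41), with limma adjusted p-values of 0.928, 0.182 and 0.0797. Without sex as a covariate the difference of Penk was 0.28 and was called (limma adjusted p = 0.0334). Of all genes, 3.44% were called between these batches. Batch 6 minus batch 4 was 0.02 for Drd2, 0.01 for Adora2a and -0.04 for Penk, and 3.87% of all genes were called. Without the 5 libraries of lowest correlation it was 0.07, 0.08 and -0.03 for these genes, again not called.

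**Figure D2:**
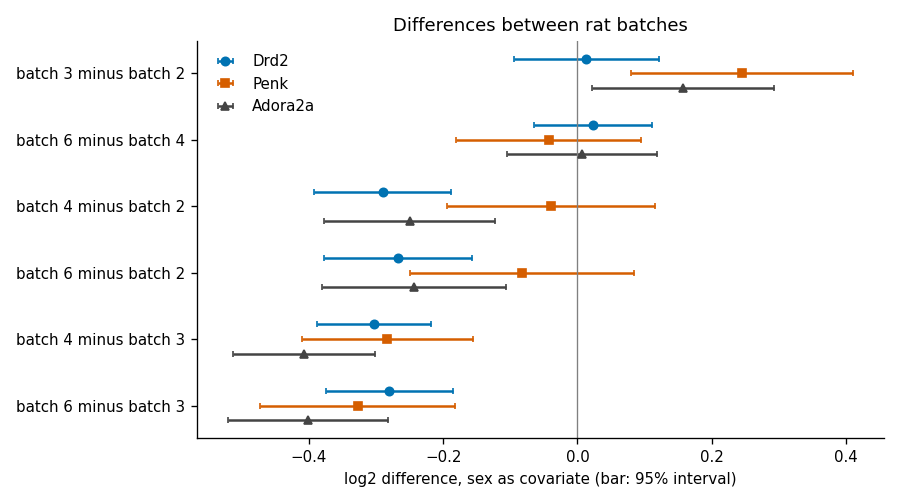
Log2 differences between pairs of rat batches for Drd2, Penk and Adora2a from the limma fit with sex as a covariate, with bars giving 95% intervals. The receptor genes lie below 0 in all 4 comparisons of batch 4 or 6 with batch 2 or 3, and Penk is near 0 against batch 2 and reaches -0.33 against batch 3.

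Of the 3 runs of library names, run 1 held all 12 libraries of batch 2 and 7 of batch 3, run 2 held 12 of batch 3, and run 3 held 1 of batch 3 with all of batches 4, 5 and 6. What a run stands for is not stated. A single library, of batch 3 in run 3, separates batches 4 and 6 from the run. The high batches and the early runs, and the low batches and run 3, cannot be told apart. Within batch 3, run 2 minus run 1 was -0.07 for Drd2, -0.01 for Adora2a and 0.13 for Penk. None of these was called by limma, with adjusted p-values of 0.592, 0.966 and 0.375, while 11.1% of all genes were. The lone library of batch 3 in run 3 had 12.23 for Drd2, 12.64 for Adora2a and 14.56 for Penk. For each gene, 1 of the 20 rats of batch 3 was lower than this library. Its values lie between the medians of batch 3 and batch 4 for Drd2 and Adora2a and just under the median of batch 4 for Penk, and 1 library gives no test of the run.

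The second comparison asked whether females and males differed. Drd2 ranged from 11.80 to 12.69 in 37 females, with a median of 12.25, and from 11.81 to 12.54 in 37 males, with a median of 12.28. Adora2a ranged from 12.02 to 13.25 in females, with a median of 12.64, and from 12.23 to 13.24 in males, with a median of 12.77. Penk ranged from 14.16 to 15.16 in females, with a median of 14.68, and from 14.10 to 15.13 in males, with a median of 14.60. The sexes overlapped over nearly their whole range for each gene. With rat batch as a covariate, male minus female was -0.03 for Drd2 (95% interval -0.10 to 0.04), 0.06 for Adora2a (95% interval -0.03 to 0.15) and -0.07 for Penk (95% interval -0.17 to 0.04). None was called by limma, with adjusted p-values of 0.933, 0.882 and 0.896, and 0.0873% of all genes were. For Adora2a the difference was 0.06 in batch 3, -0.01 in batch 4 and 0.20 in batch 6 (limma unadjusted p = 0.0477, not called after adjustment). It was 0.24 with 20 expression components as covariates, also not called, with an SE of 0.17 against 0.04 without them. Without the 5 libraries of lowest correlation, male minus female was -0.06 for Drd2, 0.03 for Adora2a and -0.10 for Penk. Without batch 6 it was -0.06, 0.02 and -0.07, and none of these was called. The interaction of sex and rat batch over batches 3, 4 and 6 was not called by limma for any of the genes, with unadjusted p-values of 0.353 for Drd2, 0.237 for Adora2a and 0.993 for Penk. Among all genes 0% were called for the interaction (0 of 17180), with 506 at an unadjusted p-value under 0.05 and 0 called by voom on the recovered counts.

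After the means of rat batch and sex were removed, the SD between rats was 0.144 for Drd2 (95% interval 0.124 to 0.173), 0.184 for Adora2a (95% interval 0.158 to 0.221) and 0.223 for Penk (95% interval 0.191 to 0.268). Among the 200 genes nearest in mean level, the median SD was 0.137 around Drd2, and 57.5% of those genes varied less than Drd2. The median SD was 0.145 around Adora2a, with 79.5% varying less. It was 0.131 around Penk, with 93.5% varying less, the highest of the 3 shares. The 200 genes around Penk had mean log2 values from 13.196 to 15.728, and so were less alike in level than the other sets. Those around Drd2 ran from 12.078 to 12.415 and those around Adora2a from 12.45 to 12.975. The spread was smallest in batch 2, which was mostly male, with SDs of 0.078 for Drd2, 0.122 for Adora2a and 0.190 for Penk. The other batches ran from 0.149 to 0.161 for Drd2, from 0.184 to 0.203 for Adora2a and from 0.205 to 0.290 for Penk. The difference in spread between batches was not tested. No relation of the residuals to depth was found, with r of 0.007 for Drd2 (permutation p = 0.949), 0.064 for Adora2a (permutation p = 0.556) and -0.093 for Penk (permutation p = 0.456) against the log2 total count. Spearman's rho was -0.073, 0.003 and -0.112, with permutation p-values of 0.521, 0.977 and 0.36, and without the 2 libraries farthest from the median total r was 0.008, 0.037 and -0.102. Over these 3 tests the smallest adjusted p was 0.834 for r and 0.782 for rho.

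The third comparison asked whether the genes rose and fell together from rat to rat within a batch. The receptor genes did. Drd2 and Adora2a had r = 0.711 after batch and sex means were removed (n = 74, permutation p = 1e-05, the smallest the permutations can give, adjusted over 3 pairs p = 3e-05), and Spearman's rho was 0.71 with the same permutation p-values. With 20 expression components also removed, r was 0.382 (permutation p = 0.00101). Without the 2 rats farthest from the median of Drd2, r was 0.677. The genes lay on the same side of their expected values in 52 of 74 rats, or 70.3%. The female rats 4 and 10 of batch 6 were lowest, at -0.35 and -0.31 for Drd2 and at -0.40 and -0.52 for Adora2a. Without the 5 libraries of lowest correlation, both of these rats among them, r was 0.640 (permutation p = 1e-05).

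The correlation of the receptor genes was found in 3 of the 4 batches. It was 0.81 in batch 3 (n = 20, permutation p = 7e-05), 0.707 in batch 4 (n = 26, permutation p = 0.0001) and 0.717 in batch 6 (n = 16, permutation p = 0.0102), and adjusted over the 12 values of all pairs and batches these p-values were 0.0006, 0.0006 and 0.0305. In batch 2 it was 0.023 (n = 12, permutation p = 0.924), with 6 of 12 rats on the same side. Spearman's rho was 0.809, 0.737 and 0.65 in batches 3, 4 and 6, and -0.014 in batch 2. Without the 2 rats farthest from the median, r was 0.726, 0.712, 0.756 and -0.175 in that order. Batch 2 was also the batch of smallest spread, and the difference between its r and that of the others was not tested.

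Penk and Adora2a were also correlated, and whether less than the receptor genes was not tested. Their r was 0.394 (n = 74, permutation p = 0.00066, adjusted p = 0.00099), with a Spearman's rho of 0.365 (permutation p = 0.00172, adjusted p = 0.00258), and 0.363 without the 2 rats farthest from the median of Penk. Under quantile normalization r was 0.246 (permutation p = 0.0409, adjusted over 3 pairs p = 0.0613), and the call was lost. With 20 expression components removed it was 0.403. The genes lay on the same side in 44 of 74 rats. By batch, r was 0.045 in batch 2, 0.667 in batch 3, 0.295 in batch 4 and 0.421 in batch 6. Only the value of batch 3 passed, with a permutation p-value of 0.00276 and 0.011 after adjustment over the 12 values, while the others had permutation p-values of 0.901, 0.137 and 0.108. Without the 2 rats farthest from the median in each batch, r was -0.369, 0.7, 0.283 and 0.528 in batches 2, 3, 4 and 6.

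Drd2 and Penk were not shown to be related within batches. Their r was 0.172 (n = 74, permutation p = 0.162, adjusted p = 0.162), rho was 0.176 (permutation p = 0.15, adjusted p = 0.15), and r was 0.125 without the 2 rats farthest from the median of Drd2. They lay on the same side in 38 of 74 rats, and r ran from 0.013 in batch 4 to 0.294 in batch 3. Without the 2 rats farthest from the median in each batch, r was -0.428, 0.28, 0.153 and -0.148 in batches 2, 3, 4 and 6. All 3 genes were above their expected values in 14 rats and all below in 16. With the means of batch and sex left in, r would have been 0.833 for Drd2 and Adora2a, 0.543 for Penk and Adora2a and 0.404 for Drd2 and Penk. With batch alone removed, r was 0.680, 0.362 and 0.185 in that order, so that the shift between batches raised each value.

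**Figure D3:**
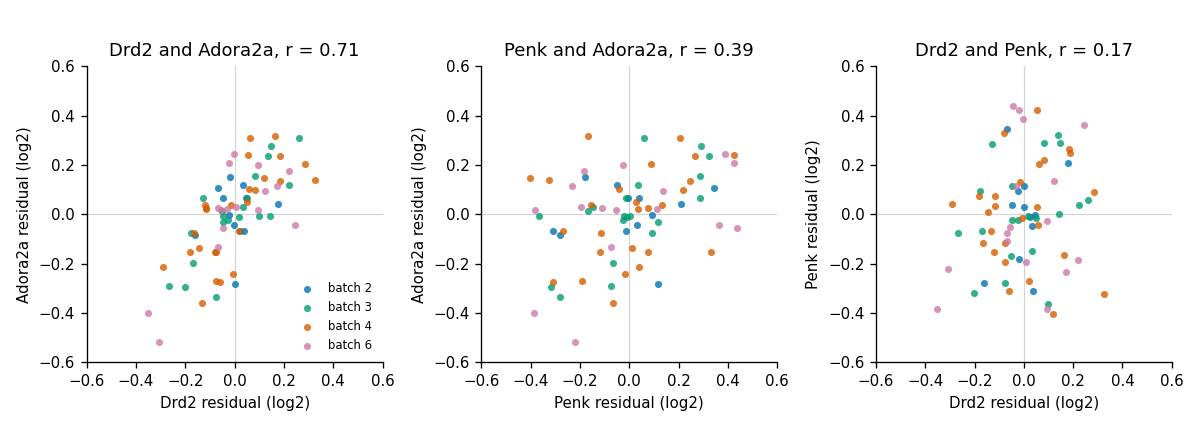
Residuals of the log2 values after the means of rat batch and sex, for 74 rats coloured by rat batch, 1 panel for each pair of genes. Drd2 and Adora2a fall along a rising band (r = 0.711), with 2 rats of batch 6 at its lower end, while Drd2 and Penk scatter without a visible trend (r = 0.172).

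**Figure D4:**
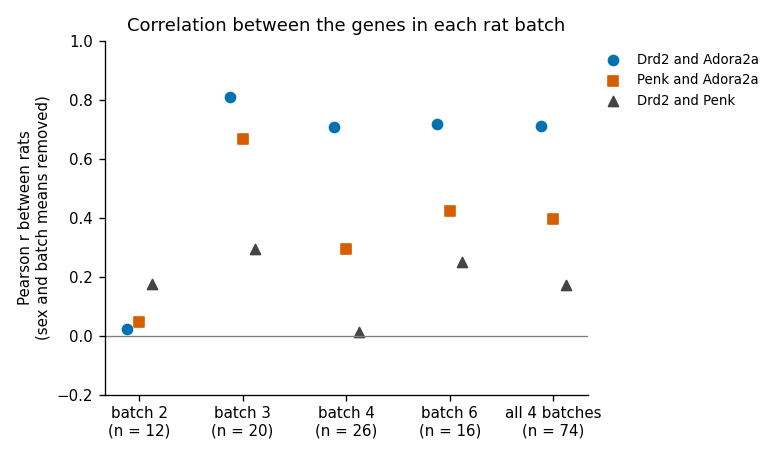
Pearson r between rats for each pair of genes, in each rat batch and over all 4 batches, with the means of batch and sex removed. Drd2 and Adora2a reach at least 0.707 in batches 3, 4 and 6 and 0.023 in batch 2.

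The same residuals were set against every other gene whose mean log2 value reached 5, which left 12987 genes for each member. The values that follow are descriptions across genes measured in the same libraries, and genes are not independent replicates. The median r was -0.014 for Drd2, -0.012 for Adora2a and -0.012 for Penk. For Drd2, 157 genes had r of at least 0.5 and 22 had r of -0.5 or lower. For Adora2a these counts were 349 and 71, and for Penk they were 118 and 91.

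Among those genes, Adora2a was the 10th most like Drd2, and Drd2 was the 15th most like Adora2a. Adora2a ranked 435 for Penk, above 96.6% of genes, and Penk ranked 896 for Adora2a. Penk ranked 2514 for Drd2 and Drd2 ranked 2820 for Penk. The overlap of their neighbours follows in part from the correlation of the genes themselves and is no separate evidence of it. Of the 100 genes most like Drd2 and the 100 most like Adora2a, 42 were shared, against 4 for Penk and Adora2a and 5 for Drd2 and Penk. Across 12985 genes, the r values of Drd2 correlated with those of Adora2a at 0.827, those of Penk with those of Adora2a at 0.485, and those of Drd2 with those of Penk at 0.275.

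**Figure D5:**
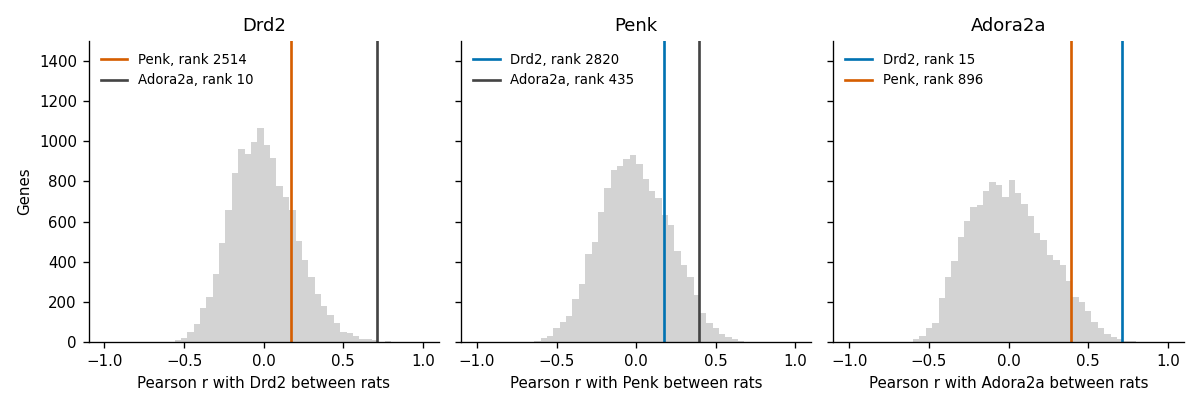
Distribution of Pearson r between rats for Drd2, Penk and Adora2a, each against 12987 other genes with batch and sex means removed, with lines at the other members. Adora2a lies at rank 10 in the distribution of Drd2, whereas Penk lies at rank 2514.

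The gene most like both receptors was ENSRNOG00000049580, with r of 0.791 to Drd2, 0.870 to Adora2a and 0.327 to Penk. Its r with Adora2a was 0.673 in batch 2, 0.907 in batch 3, 0.910 in batch 4 and 0.841 in batch 6. The gene was chosen for its r over these same rats, batch 2 included. The 8 genes most like Drd2 had r of 0.718 to 0.791 and the 8 most like Adora2a 0.755 to 0.870, with 3 genes in both lists. Of these, 6 of 8 for Drd2 and 7 of 8 for Adora2a had a positive r in all 4 batches. They too were chosen for their r over these same rats, so that these signs are no separate evidence. The gene that ran most opposite to Drd2 was ENSRNOG00000005960, at r = -0.725 overall and -0.188 in batch 2. The 4 most opposite to Adora2a lay between -0.708 and -0.591.

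Penk had other neighbours. The gene most like it was ENSRNOG00000007346, with r of 0.727 to Penk, 0.166 to Drd2 and 0.283 to Adora2a. Its r with Penk was 0.686 in batch 2, 0.303 in batch 3, 0.818 in batch 4 and 0.938 in batch 6. The 8 genes most like Penk had r of 0.636 to 0.727 with it and of -0.019 to 0.353 with Drd2, and all 8 were positive in all 4 batches. None of them was among the 8 most like either receptor gene. The most opposite gene was ENSRNOG00000021285, at r = -0.713 with Penk and between -0.837 and -0.616 in the batches. All these genes were chosen for their r over these same rats, so that their values in single batches are no separate evidence.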

How the data were processed

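The authors deposited log2 values, with a pseudocount of 1, of single-end RNA-Seq counts per Ensembl gene. The authors took these counts as RSEM estimates from cutadapt-trimmed reads, scaled libraries by upper quartile in DESeq2 and left out rarely detected genes. The submitters' processing notes name the build Rnor_6.0. Scaled counts were whole to within 0.0004%, and a scaling factor searched between 0.55 and 2.5 gave back counts for each library. In simulation, 75 of 75 factors were returned to within 1%. These counts served to state depth and in voom. No column was left unmapped (0).

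The log2 values were fitted with limma 3.58.1 in R 4.3.3 (lmFit, eBayes with trend), with Benjamini-Hochberg adjustment over 17180 genes at 0.05. Tested on simulated data, the rat batch F test called 68 of 100 genes changed by 0.25, 46 of 50 by 0.5 and 9 of 16980 unchanged genes. Correlations used residuals after batch and sex means, with 100000 two-sided permutations within batch and sex. Python 3.11.15, numpy 2.4.6 and scipy 1.17.1 were used.

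The members, the lists and the tests were chosen with earlier results of these data known. Besides the members, the genes named are those of highest and lowest r among genes whose mean log2 value reached 5. Of the 8 highest and 4 lowest for each member, the text names 2 high and 2 low identifiers. Lists of other pathway and cell type genes were not matched to identifiers, since the gene tables used here held no pairing, and were not used. Counting error covers reads only, which carried no molecular identifiers.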

Additional observations from a re-analysis of the deposited data

Results flagged for a closer look

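Penk in the males of rat batch 3 had 1 library far from the others. Male rat 23 of batch 3 had a log2 value of 15.13, whereas the other 6 males lay between 14.66 and 14.80. Its gap to the nearest rat was 0.701 of the range of the group, above the critical value of 0.568 for 7 samples. In all, 12 groups were examined for the 3 genes, and chance gives about 0.6 such cases in 12.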

How the results depend on the processing

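The 10 differences called between pairs of batches gave 160 alternative values, of which 22 lost the call and 3 of these also turned in sign. All 10 lost the call with 20 expression components as covariates, where their values still ran from -0.33 to -0.12 (batch F test adjusted p 0.726 for Drd2, 0.531 for Penk, 0.429 for Adora2a) and with column run (0.904, 0.763, 0.655), and 2 lost it under quantile normalization (Penk, F test 0.0735). Penk also lost the F test without batch 3 (0.731). The cause of these losses was not tested. Genes called between batches were 12 with 20 components, 169 with column run and 5723 without batch 3; genes called between the sexes were 7 with 20 components and 26 without the 5 libraries of lowest correlation (chosen after seeing the data); genes called for the interaction were 1 with a pseudocount of 8 and 1 with batch 2 included.

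Without sex as a covariate, Penk batch 3 minus 2 became called (0.28). Signs that turned, none called: with 20 components, male minus female was 0.033 (SE 0.14) for Drd2 and 0.12 (SE 0.24) for Penk. In the same setting, batch 3 minus 2 was -0.016 for Drd2, and batch 6 minus 4 was -0.038 for Drd2 and -0.0079 for Adora2a. There r of Drd2 and Penk was -0.126. Male minus female was 0.071 for Drd2 in batch 6 alone and -0.0072 for Adora2a in batch 4 alone. Under quantile normalization, Drd2 batch 3 minus 2 was -0.0098, and Penk was 0.093 (4 minus 2), 0.10 (6 minus 2) and 0.0047 (6 minus 4). With column run, Penk was 0.22 (4 minus 2), 0.17 (6 minus 2) and 0.040 (4 minus 3), and Adora2a 0.067 (4 minus 2) and 0.074 (6 minus 2). Without batch 6, Drd2 batch 3 minus 2 was -0.0030.

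Correlations below the threshold in single batches were 0.023 for Drd2 and Adora2a (batch 2), and 0.045, 0.295 and 0.421 for Penk and Adora2a (batches 2, 4 and 6, and 0.246 under quantile normalization). Those of Drd2 and Penk were below it in each batch, at 0.174, 0.294, 0.013 and 0.251 in batches 2, 3, 4 and 6. Without the 2 rats farthest from the median, r was below 0 in batch 2 for each pair and in batch 6 for Drd2 and Penk. With 20 components removed, r was 0.382 for Drd2 and Adora2a and 0.403 for Penk and Adora2a. Leaving out single rats gave 0.684 to 0.734 for Drd2 and Adora2a, 0.357 to 0.429 for Penk and Adora2a and 0.114 to 0.235 for Drd2 and Penk. Residual SDs beyond the 95% interval were 0.078 (Drd2), 0.190 (Penk) and 0.122 (Adora2a) in batch 2 and 0.290 (Penk) in batch 6. The number of rats per batch, the overlap of column run with batch and the unmeasured cell composition all limit these values.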
